A study of Homo sapiens with 6 samples.

Results

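DNA repair genes were described here in MKN28, an established gastric adenocarcinoma cell line that registers of misidentified lines record as a derivative of another gastric line. The members are the 45 genes of homologous recombination, end joining, the damage checkpoint, the Fanconi anaemia pathway, mismatch repair and excision repair taken from a list of names and matched by symbol alone, and all 45 were found among the 19960 genes of the deposited table. Total RNA was sequenced from stable cells that express a short hairpin RNA against LTBP1 (shLTBP1, 3 libraries) and from stable cells that express a scrambled hairpin (shSCR, 3 libraries), and both groups grew in RPMI medium with serum and with no further treatment named in the labels. The product of LTBP1 holds latent TGF-beta in the matrix around cells, and the comparison is between depleted and control cells. The labels give no hairpin sequence or number and do not say whether the stable cells are clones or pools, and they name no separate cultures behind the 3 libraries of a group, so p-values reflect library-to-library spread only, part of which may be technical.

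Cells repair broken or altered DNA by several routes that share sensors and signalling kinases. Homologous recombination copies an intact sister chromatid and depends on the BRCA proteins, end joining ligates broken ends with the help of the Ku heterodimer, the Fanconi anaemia proteins unhook crosslinks between strands, mismatch repair corrects copying errors, and excision repair removes damaged bases or oligonucleotides. Many of these genes are transcribed most in S phase, and loss of mismatch repair or of homologous recombination defines known subsets of gastric cancer.

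The hairpin target was depleted in every shLTBP1 library. LTBP1 had normalized read counts of 977, 964 and 1011 in shSCR and 59.0, 66.7 and 49.0 in shLTBP1, a log2 fold change of -4.07 ± 0.12 SE, the standard error (limma adjusted p = 1.18e-08; exact two-sided permutation p = 0.1, the smallest that 3 against 3 allows). LTBP1 lies on chromosome 2, and its value was -3.48 with the median of its tested neighbours subtracted. Fold changes are shLTBP1 against shSCR on the log2(value + 1) scale throughout. Deposited totals were between 30479879 and 30941103 per library and are normalized, so sequenced depth is unknown. All 8 epithelial markers examined, among them EPCAM and KRT18, were above 0 in every library. The fibroblast marker THY1 and the lymphocyte markers CD3D and MS4A1 were listed at 0 in all 6. Of 10 blood cell markers, however, 4 to 7 were above 0 in each library. Their sums were 346, 401 and 1324 in shSCR and 715, 740 and 629 in shLTBP1. Sums over the 8 epithelial markers were 336180 to 356807 in shSCR and 301436 to 325669 in shLTBP1, ranges that did not overlap, with EPCAM, KRT18 and CDH1 passing as lower (-1.12, -0.25 and -0.34) and ELF3, CLDN4 and KRT19 as higher (0.93, 0.27 and 0.22). EPCAM lies on chromosome 2 and was at -0.55 with neighbours subtracted. Sums over the 9 fibroblast markers, mostly COL1A1, were 1108 to 1348 in shSCR and 710.2 to 937 in shLTBP1, while LUM was at 0 in shSCR and at 41.5, 52.0 and 36.6 in shLTBP1, and sums over 6 endothelial markers were 35.6 to 52.1 and 23.9 to 33.0. The library shSCR replicate 3 stood apart by its globin RNA, with HBB at 132 and at 0 in the other 5 libraries. Without it, 13 of the 45 repair genes passed the test as higher and 10 as lower, against 15 and 12 with it. The share of mitochondrially encoded RNA moved with the groups, at 2.35% to 2.50% in shSCR and 3.20% to 3.72% in shLTBP1, and the part of these marker and mitochondrial differences in the results was not tested.

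Repair genes moved in both directions and by small amounts. Of the 45 members, all of which passed the filter of a mean of at least 10, 15 were higher in shLTBP1, 12 were lower and 18 did not pass a limma adjusted p of 0.05. That is 60.0% of the members, beside 53.1% of the 12789 genes tested (26.3% higher and 26.8% lower), a share close to the background. No member changed by 2-fold or more, whereas 8.92% of all tested genes passed with at least a 2-fold change. The median log2 fold change of the members was -0.023, beside 0.0038 for all tested genes, and the median size regardless of sign was 0.24 beside 0.26. The values are from bulk RNA, where fewer cells of a type and less RNA per cell cannot be told apart. The largest fall among members that passed was in RAD51C and the largest rise in FANCF. For 28 members (62.2%) the ranges of the shSCR and shLTBP1 libraries were separate, beside 60.8% of all tested genes.

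**Figure D1:**
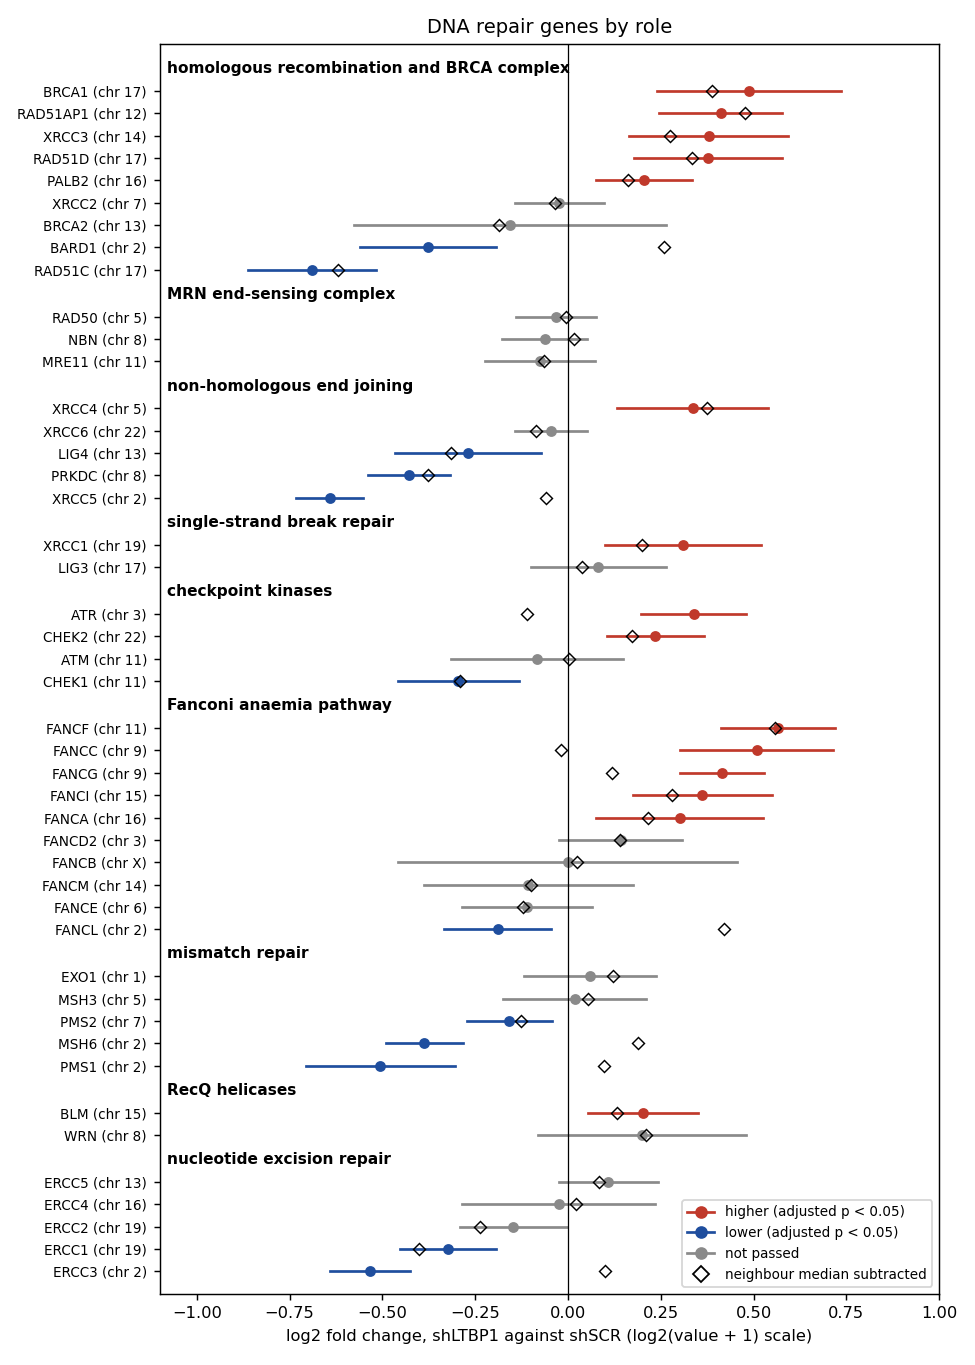
Log2 fold change of the 45 repair genes (horizontal axis, shLTBP1 against shSCR) by role, with 95% confidence intervals from limma as bars and the colour giving the call. Open diamonds give the value once the median of 25 neighbouring tested genes on each side was subtracted: they lie close to the filled points for most genes and to the right of them for the 6 genes of chromosome 2.

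Homologous recombination genes did not move as a block. Of 9 members in this group, 5 were higher (BRCA1, RAD51AP1, XRCC3, RAD51D and PALB2) and 2 lower (RAD51C and BARD1). These are 55.6% and 22.2%, beside 26.3% and 26.8% of all tested genes. BRCA1, a ubiquitin ligase that directs end resection and recombinase loading, had normalized read counts of 1419, 1550.2 and 1832 in shSCR and 2509, 1931 and 2291 in shLTBP1. The lowest shLTBP1 library lay just above the highest shSCR library, and the log2 fold change was 0.49 ± 0.11 SE (limma adjusted p = 0.00443). Its obligate partner BARD1 went the other way, with 1292, 1236 and 1152 in shSCR and 916, 869 and 1054 in shLTBP1, groups that did not overlap (log2 fold change -0.38 ± 0.08 SE, limma adjusted p = 0.00352). BARD1 lies on chromosome 2, where neighbouring genes were also lower, and with their median subtracted its value was 0.26 (limma adjusted p = 0.0136). PALB2, the bridge between the BRCA1 and BRCA2 proteins, rose by 0.21 (limma adjusted p = 0.0136, and 0.0553 without shSCR replicate 3). BRCA2, which loads the recombinase, did not pass at -0.16 (95% interval -0.58 to 0.26). Its 3 shSCR values were 628, 626 and 637, while shLTBP1 gave 661, 705 and 388, so that replicate 3 alone lay below the controls, and without it the value was 0.11 (limma adjusted p = 0.227).

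The paralogues of the strand-exchange recombinase, which act in small complexes that assist its filament, split by gene. RAD51C, a subunit of both known paralogue complexes (chr17:58692573-58735611, plus strand, hg38), had 774, 839.7 and 742 in shSCR and 474, 470.3 and 515 in shLTBP1. Every shLTBP1 value was below every shSCR value, and 62.0% of the control mean remained (log2 fold change -0.69 ± 0.08 SE, limma adjusted p = 4.98e-05). RAD51D, its partner in one of these complexes, rose from 402, 456 and 374 to 515, 542 and 537, with no overlap (log2 fold change 0.38, limma adjusted p = 0.00569). XRCC3, its partner in the other, rose by 0.38 (limma adjusted p = 0.00798, or 0.0576 at 0.27 with neighbours subtracted), but 76.7% of its exon bases are shared with KLC1 on the opposite strand, and although the kit named in the labels is directional, the strand setting of the counting is not given in the sources used here. XRCC2 was within 1174 and 1216 in all 6 libraries (log2 fold change -0.023, 95% interval -0.14 to 0.10). RAD51AP1, a DNA-binding protein that stimulates strand invasion, rose from 757, 730.2 and 765 to 989, 924 and 1089 (log2 fold change 0.41 ± 0.07 SE, limma adjusted p = 0.00112). All 3 of its shLTBP1 libraries were above the highest control, and a pseudogene named after it is annotated, which leaves its counts uncertain.

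Promoter sequences are shown for FANCF and RAD51AP1, which rose, and for RAD51C and ERCC1, which fell, because, among members with a RefSeq promoter that kept their call when the neighbouring genes' median was subtracted, these had the 2 highest and 2 lowest values. Each is the 250 bases before the RefSeq start site (GRCh38.p14, the middle start where several are listed), 5′ to 3′ on the gene's strand, with capitals marking matches on either strand to 3 motifs: the CCAAT box (CCAAT), an E2F-type site (TTCCCGCC) and an ETS-type core (CGGAAG). The motif matches shown do not overlap each other. The windows are chr11:22625824-22626073 on the minus strand for FANCF, chr12:4538640-4538889 on the plus strand for RAD51AP1, chr17:58692323-58692572 on the plus strand for RAD51C and chr19:45423918-45424167 on the minus strand for ERCC1.
FANCF: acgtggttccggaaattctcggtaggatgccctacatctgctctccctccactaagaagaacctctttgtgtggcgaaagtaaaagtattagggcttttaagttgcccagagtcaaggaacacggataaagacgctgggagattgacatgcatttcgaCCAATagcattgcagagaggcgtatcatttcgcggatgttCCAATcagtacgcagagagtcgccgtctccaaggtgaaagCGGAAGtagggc
RAD51AP1: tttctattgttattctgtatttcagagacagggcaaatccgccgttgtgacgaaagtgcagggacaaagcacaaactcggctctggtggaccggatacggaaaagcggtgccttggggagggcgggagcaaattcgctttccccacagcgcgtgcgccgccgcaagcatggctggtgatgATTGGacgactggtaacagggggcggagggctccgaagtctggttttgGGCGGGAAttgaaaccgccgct
RAD51C: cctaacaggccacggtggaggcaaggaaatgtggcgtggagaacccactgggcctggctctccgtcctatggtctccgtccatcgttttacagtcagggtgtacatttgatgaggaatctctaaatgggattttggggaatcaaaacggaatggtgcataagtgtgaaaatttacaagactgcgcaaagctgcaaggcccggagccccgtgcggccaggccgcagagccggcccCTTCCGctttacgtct
ERCC1: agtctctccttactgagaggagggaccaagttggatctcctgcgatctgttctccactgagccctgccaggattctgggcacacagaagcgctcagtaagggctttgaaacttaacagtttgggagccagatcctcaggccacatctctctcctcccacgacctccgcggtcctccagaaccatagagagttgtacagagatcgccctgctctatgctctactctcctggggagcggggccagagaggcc
In FANCF, CCAAT matches began at positions -92 and -52 relative to the start site and an ETS-type match at -12. RAD51AP1 held a CCAAT match and, from position -22, an E2F-type match, both on the reverse strand. RAD51C held an ETS-type match only, and these letters are not in the ERCC1 window. By GENCODE release 29 the annotated gene begins at 4538798 for RAD51AP1, 22625841 for FANCF and 45478828 for ERCC1. Both RAD51AP1 matches, the ETS-type match of FANCF and the whole ERCC1 window thus lie inside the annotated genes. Promoters were matched for 40 of the 45 members. The ETS-type core was in 52.5% of these, in 28.5% of the promoters of tested genes and in 16.9% of all 27305 promoters of this length. By call, it was in 8 of 14 members that rose, 4 of 10 that fell and 9 of 16 that did not pass. CCAAT was in 9, 3 and 5 of these, and in 34.8% of the promoters of tested genes (32.8% of all). The E2F-type site was in 3, 1 and 0, beside 4.48% of the promoters of tested genes (2.76% of all).

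Of 5 end joining genes 3 were lower (60.0%, beside 26.8% of all tested genes). No gene of the RAD50, MRE11 and NBN complex passed the test, beside 53.1% of all tested genes. This complex binds broken ends and recruits ATM, and its genes, in that order, had log2 fold changes of -0.033, -0.076 and -0.063, and none passed, with 95% intervals from -0.22 to 0.076 taken over all 3. RAD50 shares 79.7% of its exon bases with an overlapping gene model on the same strand, so its counts are uncertain, and a pseudogene named after MRE11 is annotated. Of the end joining genes, XRCC5, PRKDC and LIG4 were lower, XRCC4 was higher and XRCC6 did not pass. PRKDC, the catalytic subunit of the DNA-dependent protein kinase, had 16848, 16829 and 15620.5 in shSCR and 12282, 11653 and 12696 in shLTBP1. The groups were well apart, and the log2 fold change was -0.43 ± 0.05 SE (limma adjusted p = 5.91e-05), or -0.20 with trends of GC content and transcript length removed (adjusted p = 0.00313). XRCC5, the Ku80 subunit, fell from 21642, 21761 and 21028 to 13947, 13292 and 14047, or to 64.1% of the control mean (limma adjusted p = 1.15e-06). It lies on chromosome 2, and with its neighbours' median subtracted the log2 fold change of -0.64 became -0.058 (limma adjusted p = 0.242). Its Ku70 partner XRCC6, on chromosome 22, was at 15636, 15709.6 and 15281 in shSCR and 14695, 15784 and 14694 in shLTBP1, overlapping groups (log2 fold change -0.046, 95% interval -0.14 to 0.051). 5 pseudogenes named after XRCC6 are annotated, which leaves its counts uncertain. XRCC4, the scaffold of the ligation step, rose from 282, 334 and 317 to 386, 398 and 390.3 (log2 fold change 0.34, limma adjusted p = 0.0113). The ligase that it holds, LIG4, fell by 0.27 on the log2 scale (limma adjusted p = 0.0263). This call was lost without shSCR replicate 1, shSCR replicate 2 or shLTBP1 replicate 2 (limma adjusted p = 0.0906, 0.0699 and 0.0641).

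Of 4 checkpoint kinases, 2 were higher and 1 lower, beside 26.3% and 26.8% of all tested genes. ATM and ATR are the apical kinases, activated by broken ends and by single-stranded DNA, and they phosphorylate CHEK2 and CHEK1 respectively. CHEK1 had 2479.6, 2134 and 2424 in shSCR and 1772, 2026 and 1933 in shLTBP1, with no overlap (log2 fold change -0.30 ± 0.07 SE, limma adjusted p = 0.00708). CHEK2 went from 944, 955 and 914 to 1108, 1069 and 1135, a narrow spread in both groups and a rise of 0.24 (limma adjusted p = 0.00717). The counts of CHEK2 are uncertain because pseudogene copies of it are annotated. ATR, on the long arm of chromosome 3, rose from 1705, 1814 and 1697 to 2121, 2099 and 2384 (log2 fold change 0.34, limma adjusted p = 0.00143). Its neighbours were higher by a median of 0.45, and with this subtracted its value was -0.11 (limma adjusted p = 0.135). ATM did not pass (-0.083, 95% interval -0.31 to 0.15), and its lowest and highest values, 1706 and 2329, were both in shSCR. Without shSCR replicate 1 it passed as lower (-0.22, limma adjusted p = 0.0144), and without shSCR replicate 2 its log2 fold change was 0.00015.

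**Figure D2:**
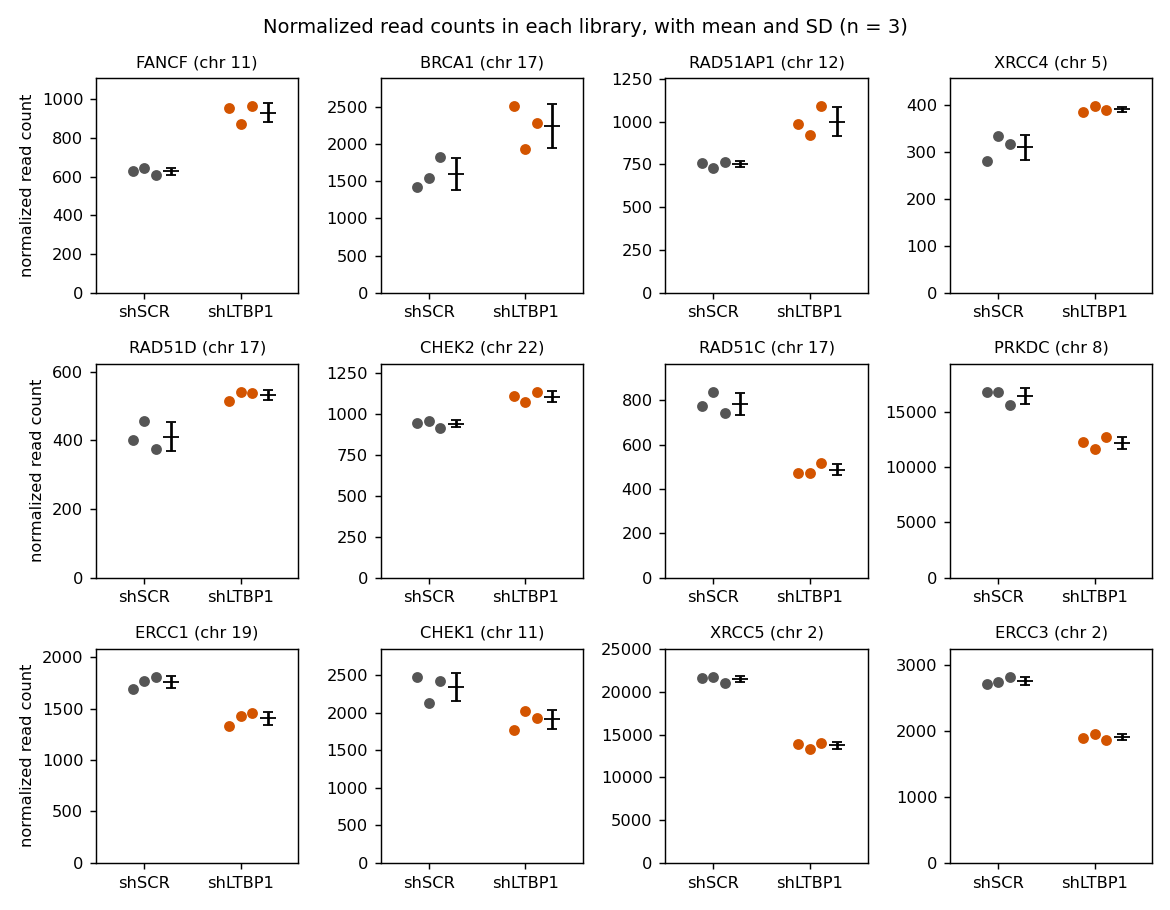
Normalized read count (vertical axis, from 0) of 12 repair genes in each of the 3 shSCR and 3 shLTBP1 libraries, with the mean and SD beside the points. All 12 genes were taken from members that passed and whose groups do not overlap, so the separation in every panel follows from the choice. Groups were separate for 62.2% of the members and 60.8% of all tested genes. RAD51C shows 62.0% and FANCF 148% of the control mean in shLTBP1.

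Of 10 Fanconi anaemia genes 6 passed (60.0%, beside 53.1% of all tested genes). The proteins of FANCA, FANCB, FANCC, FANCE, FANCF, FANCG, FANCL and FANCM belong to the core complex, whose ligase FANCL ubiquitinates the clamp formed by FANCI and FANCD2. FANCF, FANCC, FANCG, FANCI and FANCA were higher, FANCL was lower and 4 did not pass. With neighbours subtracted FANCC, FANCG and FANCA lost their calls and FANCL passed as higher. FANCF, an adaptor of the core complex (chr11:22622890-22625841, minus strand, hg38), had 628, 646 and 609 in shSCR and 955, 873 and 963 in shLTBP1. The shLTBP1 mean was 148% of the control mean, the groups were well apart (log2 fold change 0.57 ± 0.07 SE, limma adjusted p = 8.26e-05), and with the neighbours subtracted the value was 0.56. FANCC and FANCG, which also hold the core complex together, both lie on chromosome 9. FANCC rose from 791, 628 and 761 to 974, 1037 and 1078 and FANCG from 1597, 1514 and 1575 to 2090.2, 2046 and 2107, with log2 fold changes of 0.51 and 0.41 (limma adjusted p = 0.00117 and 8.75e-05). Their neighbours were higher by 0.53 and 0.30, and neither gene passed once this was subtracted (-0.02 and 0.12, limma adjusted p = 0.877 and 0.11).

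Of the clamp genes, FANCI rose from 4161, 4442 and 4235 to 6127, 4747 and 5713 (log2 fold change 0.36, limma adjusted p = 0.00484). FANCD2 was at 1885, 2004 and 1753 in shSCR and 2231, 1894 and 2105 in shLTBP1, overlapping values that did not pass (0.14, limma adjusted p = 0.133), but it passed without shLTBP1 replicate 2 (0.21, limma adjusted p = 0.0282), and a pseudogene copy of it is annotated. FANCL, on chromosome 2, was at -0.19 (limma adjusted p = 0.0318). The call of FANCL was lost without shSCR replicate 2 or 3 or shLTBP1 replicate 1 or 2 (limma adjusted p = 0.114, 0.0745, 0.0889 and 0.0577) and with the replicate number as a block (limma adjusted p = 0.0522), and with the neighbours subtracted FANCL passed as higher (0.42, limma adjusted p = 0.000328). FANCA rose by 0.30 (limma adjusted p = 0.0295) with overlapping groups, and lost its call without shSCR replicate 1 or 2 or shLTBP1 replicate 2 or 3 (limma adjusted p = 0.105, 0.0842, 0.0796 and 0.0937). FANCE, FANCM and FANCB were at -0.11, -0.11 and -0.00046. With GC content and length trends removed FANCE passed as lower (-0.22, limma adjusted p = 0.0468) and FANCD2 as higher (0.25, limma adjusted p = 0.0108). FANCB, the member with the lowest control mean, had the widest interval (-0.46 to 0.46) and was positive without shSCR replicate 1, shSCR replicate 2 or shLTBP1 replicate 2 (0.13, 0.11 and 0.12). FANCM was positive without shLTBP1 replicate 2 (0.049).

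Of 5 mismatch repair genes 3 were lower (60.0%) and none passed as higher, beside 26.8% and 26.3% of all tested genes. MSH6 recognises base mismatches and small loops, MSH3 recognises larger loops, PMS2 and PMS1 are subunits of MutL complexes and EXO1 degrades the strand with the error. MSH6 had 7657, 7519 and 7566 in shSCR and 5727, 5569 and 6108 in shLTBP1, every shLTBP1 value below every control (log2 fold change -0.39 ± 0.05 SE, limma adjusted p = 8.1e-05). PMS1 went from 769, 798 and 659 to 514, 555 and 494 (log2 fold change -0.51, limma adjusted p = 0.00102). Both genes lie on chromosome 2, and with the neighbours subtracted MSH6 passed as higher (0.19, limma adjusted p = 0.00382) and PMS1 did not pass (0.10). PMS2 fell by 0.16 on the log2 scale (limma adjusted p = 0.025), a call lost without shSCR replicate 1, shSCR replicate 3 or shLTBP1 replicate 1 (limma adjusted p = 0.0784, 0.0879 and 0.0713). With neighbours subtracted PMS2 did not pass either (-0.13, limma adjusted p = 0.0768). Its counts are uncertain because 10 pseudogenes named after it are annotated. MSH3 and EXO1 did not pass, with values of 0.018 (95% interval -0.17 to 0.21) and 0.058 (-0.12 to 0.24). MSH3 turned negative without shSCR replicate 2 or 3 or shLTBP1 replicate 2 or 3, between -0.034 and -9.63e-05.

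Of 5 nucleotide excision repair genes, ERCC1 and ERCC3 were lower (40.0%, beside 26.8% of all tested genes) and the other 3 did not pass. ERCC1 and ERCC4 form the nuclease that cuts on the 5′ side of a bulky lesion, ERCC5 cuts on the 3′ side, and ERCC2 and ERCC3 are the helicase and translocase of TFIIH. ERCC1 had 1694, 1769 and 1810.2 in shSCR and 1334, 1429 and 1452 in shLTBP1, with no overlap (log2 fold change -0.32 ± 0.06 SE, limma adjusted p = 0.00105). The value was -0.40 with the neighbours subtracted, and 28.6% of the exon bases of ERCC1 are shared with CD3EAP on the opposite strand. ERCC3 fell from 2720.5, 2744 and 2830.1 to 1892, 1963 and 1875, or 69.1% of the control mean (limma adjusted p = 1.18e-05). ERCC3 is on chromosome 2, and its log2 fold change of -0.53 became 0.10 with the neighbours subtracted (limma adjusted p = 0.16). ERCC2 was at -0.15 (limma adjusted p = 0.0779, and 0.0381 without shSCR replicate 2), although its groups did not overlap. Its 95% interval was -0.29 to -0.004. With GC content and length trends removed ERCC2 passed as lower (-0.23, limma adjusted p = 0.00889) and ERCC5 as higher (0.21, limma adjusted p = 0.00906). ERCC4 and ERCC5 were at -0.025 and 0.11, with 95% intervals of -0.28 to 0.23 and -0.025 to 0.24. ERCC4 was positive without shSCR replicate 3 or shLTBP1 replicate 2 (0.11 and 0.050), and ERCC5 shares 63.2% of its exon bases with the read-through model BIVM-ERCC5.

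Other members also share exon bases with neighbours, among them FANCA with ZNF276 (23.6%), FANCL with VRK2 (18.7%), MSH6 with FBXO11 (16.2%) and FANCF with GAS2 (11.3%), so that part of their counts is uncertain.

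Small rises that did not hold under every setting were found for a scaffold and a helicase. XRCC1, the scaffold of strand-break ligation, went from 918, 910.1 and 939 to 1196, 1279 and 975 (log2 fold change 0.31, limma adjusted p = 0.0196). Its call was lost without shSCR replicate 1 or 2 or shLTBP1 replicate 1 or 2 (limma adjusted p = 0.0521, 0.055, 0.0666 and 0.0578), once trends of GC content and length were removed (0.21, limma adjusted p = 0.0565) and with neighbours subtracted (0.20, limma adjusted p = 0.104). LIG3, the ligase bound by XRCC1, did not pass (0.081; 0.17 with a limma adjusted p of 0.0322 without shLTBP1 replicate 2), and once trends of GC content and length were removed it passed as higher (0.27, limma adjusted p = 0.00907). For LIG3, 29.1% of exon bases are shared with RFFL on the opposite strand. BLM, which dissolves joined recombination intermediates, rose by 0.20 (limma adjusted p = 0.0267), and lost the call with neighbours subtracted (0.13, limma adjusted p = 0.122). The call of BLM was also lost without shSCR replicate 2 or 3 or shLTBP1 replicate 2 (limma adjusted p = 0.106, 0.059 and 0.0678). WRN, the other RecQ helicase listed, had the same size of change and a wider spread (0.20, 95% interval -0.081 to 0.48), and passed without shLTBP1 replicate 2 (0.34, limma adjusted p = 0.015).

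In 9 members the neighbouring genes differed most between the groups, each time in the direction of the member's own call. Genes of chromosome 2 were lower in shLTBP1 as a whole: of 852 tested there, 76.6% passed as lower and 4.93% as higher (median log2 fold change -0.56). All 6 members on this chromosome, XRCC5, ERCC3, PMS1, MSH6, BARD1 and FANCL, passed as lower, while their neighbours were at medians between -0.64 and -0.58. With the median of the 25 tested neighbours on each side subtracted in each library, none of the 6 passed as lower and 3 passed as higher, FANCL, BARD1 and MSH6. In the same way the rises of ATR, FANCC and FANCG lay in regions of chromosomes 3 and 9 that were higher, and none of the 3 passed after the subtraction. Off chromosome 2, 15 of 39 members passed as higher (38.5%) and 6 as lower (15.4%). All tested genes, those of chromosome 2 included, were at 26.3% and 26.8%. After the subtraction 11 of the 45 members passed as higher and 6 as lower, beside 24.1% and 24.7% (48.8% in either direction) of the 12740 genes tested in that way. Of the 27 calls, 13 kept their direction and threshold, 11 were lost and 3 turned. Calls were also lost for XRCC3, XRCC1, FANCA, BLM and PMS2, whose neighbours were at medians of only 0.11, 0.11, 0.084, 0.069 and -0.030. Loss of a call after the subtraction is therefore not particular to the regions named above. The calls that were kept are the rises of BRCA1, PALB2, RAD51D, RAD51AP1, XRCC4, CHEK2, FANCF and FANCI and the falls of RAD51C, LIG4, PRKDC, CHEK1 and ERCC1, and ERCC2 passed as lower (-0.24, limma adjusted p = 0.0121). The part of the regional differences in the calls was not tested beyond this subtraction.

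**Figure D3:**
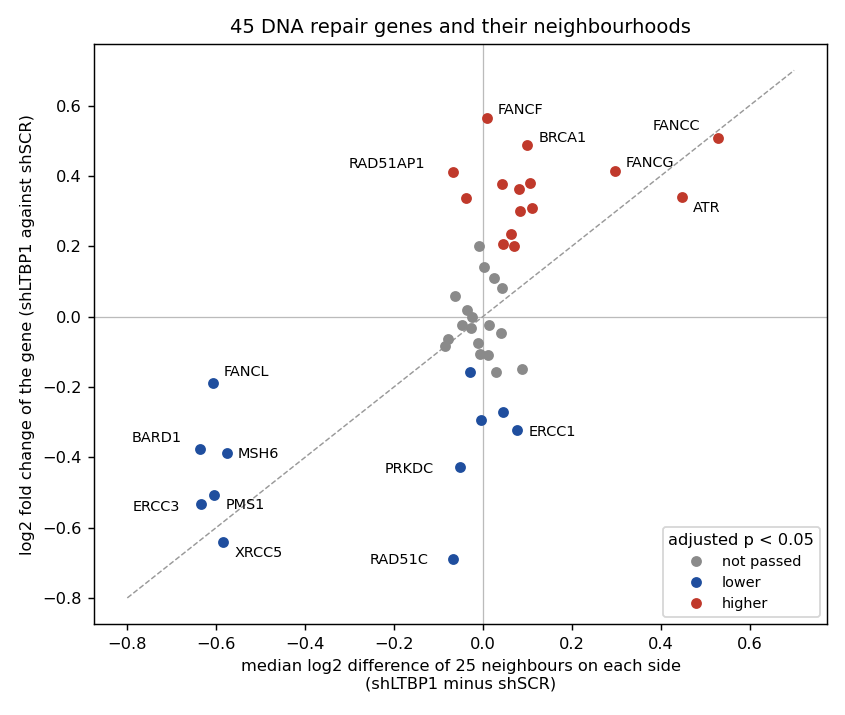
Log2 fold change of each of the 45 repair genes (vertical axis) against the median log2 difference of its 25 tested neighbours on each side (horizontal axis), both shLTBP1 minus shSCR, with equality dashed. The 6 genes of chromosome 2 stand at the lower left, FANCC, ATR and FANCG at the upper right, and most others near 0 on the horizontal axis.

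Ratios of normalized read counts between partner genes were taken within each library, and since genes differ in length only their difference between groups is read. Of 8 ratios computed, 6 had groups that did not overlap, for which the exact two-sided permutation p was 0.1, the smallest possible (0.133 with Benjamini-Hochberg adjustment over 8). Ratios of other gene pairs were not computed, and 60.8% of single tested genes had groups that did not overlap. RAD51C and BARD1 were lower and RAD51D, XRCC3 and BRCA1 higher, each without overlap. Separation of the ratios between them follows from those values and is no further result. The ratio of RAD51C to RAD51D normalized read counts was 1.93, 1.84 and 1.99 in shSCR and 0.921, 0.867 and 0.959 in shLTBP1, a log2 difference of -1.07. The ratio of RAD51C to XRCC3 had a log2 difference of -1.07, and with neighbours subtracted these differences were -0.95 and -0.89. XRCC5 to XRCC6, the Ku subunits, went from 1.38, 1.39 and 1.38 to 0.949, 0.842 and 0.956, a log2 difference of -0.60, or 0.028 with neighbours subtracted. BARD1 to BRCA1 had a log2 difference of -0.86 (-0.13 with neighbours subtracted), MSH6 to MSH3 of -0.41 (0.14) and FANCI to FANCD2 of 0.22 (also 0.14). ERCC1 to ERCC4 and RAD50 to MRE11 overlapped between the groups (exact permutation p = 0.2 and 0.7).

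**Figure D4:**
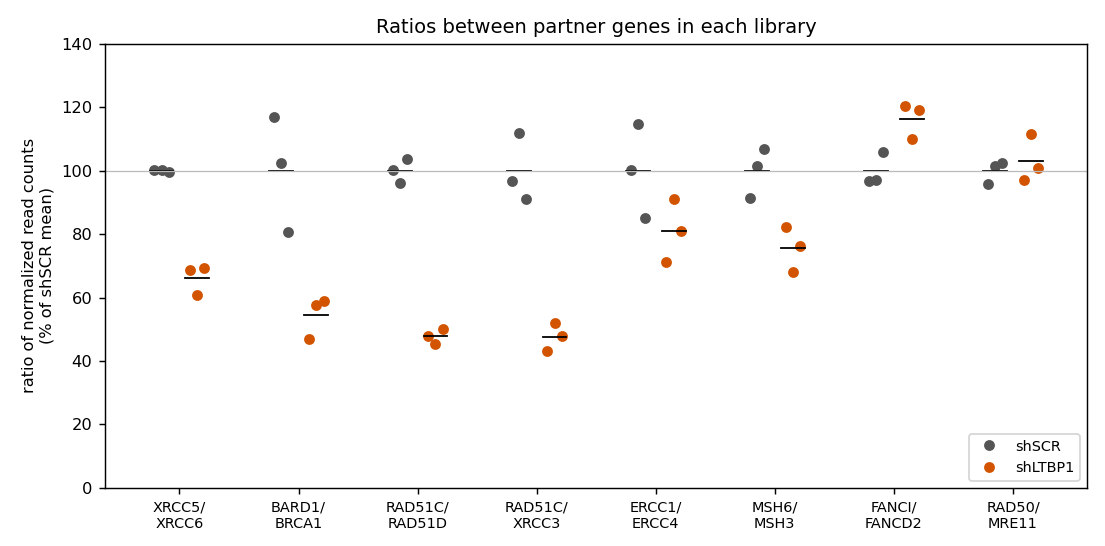
Ratio of normalized read counts between partner genes (vertical axis, from 0, as a percentage of the shSCR mean ratio) in each library, with black bars for the group means. The group means of the RAD51C ratios in shLTBP1 stand lowest, and the RAD50 to MRE11 ratios of the groups overlap.

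Control levels of the members ran from 159 for FANCB to 21477 for XRCC5 in normalized read count, with a median of 1161 beside 980.1 for all tested genes. Per kilobase of annotated exon, XRCC6 and XRCC5 were highest (4727 and 3931 normalized counts per kb in shSCR) and RAD51D was lowest (36.3), and the member median was 214. The length used is the union of all annotated exons of a gene, 11304 bases for RAD51D, and can exceed that of its transcripts. The rank of RAD51D therefore depends on the annotation, and its control mean of 410 was above that of FANCB. In shLTBP1 the per-kilobase levels of XRCC6 and XRCC5 were 4579.6 and 2519, so that their distance widened while their order stayed.

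Other repair genes were counted in the same fit. Of 125 other repair genes in 8 lists, 124 were tested, 42 rose (33.9%), 19 fell (15.3%) and 63 did not pass, beside 26.3% higher and 26.8% lower of all tested genes. The share that passed in either direction was 49.2%, beside 53.1%. Their median log2 fold change was 0.10, beside 0.0038 for all tested genes. Base excision and strand-break repair had the most rises, 11 of 20, with 3 falls. MUTYH, the glycosylase that removes adenine opposite oxidised guanine, rose from 140.2 ± 16.7 to 257 ± 4.81 (SD, n = 3 each), APTX, which resolves abortive ligation products, had a log2 fold change of 0.66, and the polymerase POLB one of -0.28. The DNA glycosylase NEIL2 fell by 0.34 on the log2 scale, and lost its call without shSCR replicate 1 or 2 or shLTBP1 replicate 3 (limma adjusted p = 0.0772, 0.0586 and 0.0611). In other homologous recombination and resolution genes, 8 of 26 rose and 3 fell. RMI1 and RMI2, cofactors of the BLM complex, had the largest rises of that list, 779 ± 32.8 to 1513 ± 83.9 and 797 ± 17.9 to 1449.6 ± 90.2 (SD, n = 3 each). With neighbours subtracted RMI1, on chromosome 9, was at 0.45 and RMI2 at 0.85. The largest falls there were GEN1, a resolvase on chromosome 2 (-0.84, or -0.30 with neighbours subtracted), and ABRAXAS1, a subunit of a BRCA1 complex (-0.55).

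Damage signalling genes beyond the kinases gave 6 rises and 2 falls in 20 (30.0% and 10.0%, beside 26.3% and 26.8% of all tested genes). H2AX, the histone variant phosphorylated around breaks, rose from 2513 ± 94.8 to 4680.5 ± 461 (SD, n = 3 each; 0.64 on the log2 scale with GC content and length trends removed, against 0.89), and RAD9A, of the checkpoint clamp, rose by 0.75 on the log2 scale. The falls were RIF1, which restrains end resection, and the ATR activator ETAA1, at -0.75 and -0.62. With neighbours subtracted these chromosome 2 genes had values of -0.14 and -0.056. Among 9 other end joining genes 3 rose, led by the polymerase POLM (0.47) and PAXX (0.36, but 0.095 and not passing once trends of GC content and length were removed, limma adjusted p = 0.221), and 2 fell, APLF (-1.18) and NHEJ1 (-0.51), again on chromosome 2 (-0.61 and 0.033 with neighbours subtracted). Other nucleotide excision genes split into 5 rises and 4 falls of 19. The largest rises of that list were in the damage sensors DDB2 and XPC (0.61 and 0.58). Its largest falls were in ERCC8 and ERCC6, which serve transcription-coupled repair (-0.47 and -0.33, the latter -0.089 with GC content and length trends removed). Damage sensing and transcription-coupled repair were not compared as groups.

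Of 20 other Fanconi and translesion genes, 5 rose and 2 fell (25.0% and 10.0%, beside 26.3% and 26.8% of all tested genes). USP1, the deubiquitinase of the FANCI and FANCD2 clamp, rose by 0.40 and the core complex component CENPX by 0.45, and the translesion polymerases REV1 and POLK were at -0.59 and -0.40, REV1 on chromosome 2 (-0.043 with neighbours subtracted). Of 8 genes of direct reversal and nucleotide pools, 3 rose and 3 fell. The falls were led by RRM2B, a ribonucleotide reductase subunit (-0.60), and the demethylase ALKBH2 (-0.45), and the rises by ALKBH3 (0.26) and RRM1 (0.24, or 0.076 with neighbours subtracted). ALKBH3 lost its call without shSCR replicate 1 or 3 or shLTBP1 replicate 2 or 3 (limma adjusted p = 0.0743, 0.0621, 0.0519 and 0.0775). Of 3 other mismatch repair genes, MSH5 rose by 0.71 but not without shSCR replicate 2 or shLTBP1 replicate 1 (limma adjusted p = 0.1 each), MLH3 did not pass (0.30, or 0.40 once trends of GC content and length were removed, limma adjusted p = 0.0429) and MSH4 was below the filter. All rises and falls named here had limma adjusted p of at most 0.0289. On chromosome 2 lie 8 of these 124 genes, of which 7 passed as lower, and 1 after the subtraction.

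**Figure D5:**
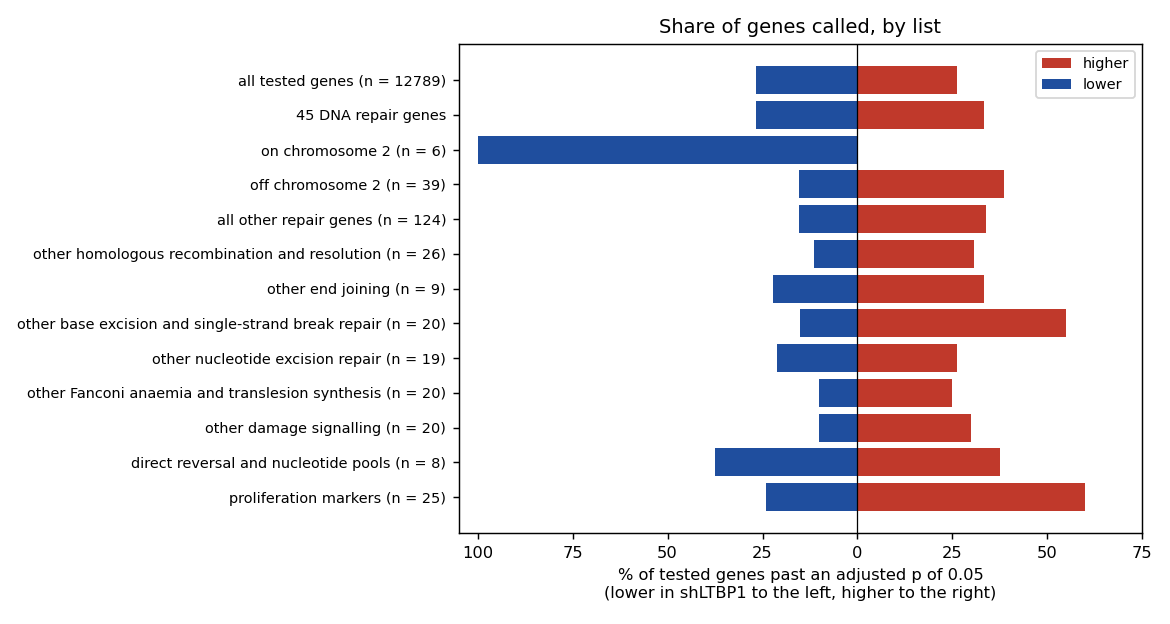
Percentage of tested genes past a limma adjusted p of 0.05 (horizontal axis, lower in shLTBP1 to the left and higher to the right) for all tested genes, the 45 repair genes, those on and off chromosome 2, the other repair lists with at least 8 tested genes and proliferation markers. The bar of the 6 chromosome 2 members runs to 100% on the left, and base excision genes and proliferation markers reach furthest to the right.

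Proliferation markers moved in both directions, and their sum was higher in shLTBP1. Their summed normalized count over 25 genes was 122472 to 124325 in shSCR and 129784 to 130580 in shLTBP1, ranges that did not overlap, and 15 of 25 rose (60.0%) while 6 fell (24.0%), beside 26.3% and 26.8% of all tested genes. CCNE2, a cyclin of S phase entry, and the transcription factor E2F2 rose by 0.66 and 0.49, and the mitotic kinase BUB1, on chromosome 2, and CCNE1 were at -0.91 and -0.55 (limma adjusted p of at most 0.00176), with BUB1 at -0.18 once neighbours were subtracted (limma adjusted p = 0.011). The other falls were MKI67, AURKA, PLK1 and, on chromosome 2, MCM6 (-0.25, -0.33, -0.20 and -0.44, limma adjusted p of at most 0.00755). With neighbours subtracted these were at -0.26, -0.36, -0.26 and 0.17. MKI67 did not pass with GC content and length trends removed (-0.060, limma adjusted p = 0.355). The part of cell cycle distribution in the values of the repair genes was not tested.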

How the data were processed

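Libraries from total RNA were made with a directional kit, per the labels' protocols. The submitters' processing notes name FastQC 0.10.1, STAR 2.7.3a, RSEM 1.3.1, DESeq2 and the build hg38. The annotation, strand setting, filters and version of DESeq2 were not given in the sources used here. The deposited signal values are counts that the authors normalized for library size: they are fractional, whole reads could not be recovered from them and sequenced depth is unknown, so no count model was used and no counting interval is given. The precision of each fold change is given by its standard error or interval.

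Columns were matched to libraries by name. Values were tested as log2(value + 1) with limma 3.58.1 (lmFit, eBayes with trend) in R 4.3.3 for 12789 genes with a mean of at least 10, all 6 libraries in 1 fit, two-sided, with Benjamini-Hochberg adjustment over all genes tested and a threshold of 0.05. Coordinates, exon lengths and overlaps came from GENCODE release 29 (19872 of 19960 genes matched), promoters from RefSeq. For the neighbour-subtracted values, the log2 values of each gene were first expressed as deviations from that gene's mean over the libraries. The median deviation of up to 25 tested genes on each side along the chromosome was then subtracted from each gene within each library before the fit. Alternatives were other pseudocounts, filters, scalings (TMM, upper quartile, quantile) and moderation, a replicate block, removal of GC content and length trends, and each library left out. The fit was also run on simulated data with few changed genes, the same spread setting for every gene and no regional shifts. Those settings are simpler than these data, so the run checks the code and not the calls given here. Named genes are LTBP1, the 45 members and, from each other list, up to 2 that rose most and 2 that fell most, provided they passed the threshold and their groups did not overlap; marker genes, MLH3 and MSH4, and genes in the closing observations, were named outside this rule after their values were seen. The members, lists, partner pairs and motifs were chosen with earlier results of these data known.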

Additional observations from a re-analysis of the deposited data

How the results depend on the processing

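Of the 27 repair genes that passed, 11 kept direction and threshold under all 18 alternatives (BRCA1, RAD51C, RAD51D, RAD51AP1, XRCC4, PRKDC, CHEK1, CHEK2, FANCF, FANCI and ERCC1), and 20 kept their call whichever library was left out. With 1 library left out, 12 to 15 members passed as higher and 10 to 12 as lower. With the neighbours' median subtracted, 6 members passed as lower instead of 12. Under that setting the log2 fold changes that turned in sign were BARD1 0.26, NBN 0.015, ATM 0.0014, ATR -0.11, FANCB 0.024, FANCC -0.020, FANCL 0.42, MSH6 0.19, PMS1 0.098, ERCC3 0.099, ERCC4 0.022 and NHEJ1 0.033, and the log2 ratios XRCC5 to XRCC6 0.028 and MSH6 to MSH3 0.14. With trends of GC content and length removed, those that turned were BRCA2 0.035, XRCC2 0.0010, RAD50 0.098, MRE11 0.018, ATM 0.23, FANCB 0.027, FANCM 0.0072 and ERCC4 0.081, none of which passed in either fit. Upper quartile scaling turned XRCC2 (0.0049), FANCB (0.027) and ERCC4 (0.0032). Leaving out 1 library in turn gave values of both signs for BRCA2 (-0.32 to 0.11, positive without shLTBP1 replicate 3), ATM (-0.22 to 0.00015, positive without shSCR replicate 2), FANCB (-0.24 to 0.13, positive without shSCR replicate 1 or 2 or shLTBP1 replicate 2), FANCM (-0.22 to 0.049, positive without shLTBP1 replicate 2), MSH3 (-0.034 to 0.090, negative without shSCR replicate 2 or 3 or shLTBP1 replicate 2 or 3), ERCC4 (-0.13 to 0.11, positive without shSCR replicate 3 or shLTBP1 replicate 2) and the RAD50 to MRE11 log2 ratio (-0.014 to 0.084, negative without shLTBP1 replicate 2). Moderation without a trend ended the calls of LIG4, XRCC1, FANCA, BLM and MSH5 (limma adjusted p = 0.0517, 0.0556, 0.0634, 0.0558 and 0.0696), upper quartile scaling those of FANCL and PMS2 (0.0605 and 0.0555), and quantile normalization that of FANCL (0.05002). The cause of these changes was not tested. Same-numbered libraries deviated together little (r = -0.00925, 0.0584 and -0.00074 for numbers 1, 2 and 3). With 3 libraries per group this cannot decide whether they were handled together. With the replicate block, 15 members passed as higher and 11 as lower, FANCL being the call lost. Not every library correlated best with its own number. Depth could not be assessed from normalized values.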

Other observations

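PARP1 and PARP2, which mark strand breaks with ADP-ribose, were both higher in shLTBP1. PARP1 had normalized read counts of 7681, 7543 and 7462 in shSCR and 9527, 9409.5 and 9320.0 in shLTBP1, with no overlap (log2 fold change 0.32, limma adjusted p = 9.41e-05). PARP2 rose by 0.44 on the same scale (limma adjusted p = 0.000283). With neighbours subtracted the values were 0.33 and 0.55.

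The library shLTBP1 replicate 3 held single genes far from its group. DCLRE1C, the nuclease that opens hairpin ends, was at 1402.5 there and between 525 and 591 in the other 5 libraries, and did not pass (log2 fold change 0.40, limma adjusted p = 0.293). BRCA2 was at 388 in the same library and between 626 and 705 in the others.

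BABAM2 and RRM2, on chromosome 2, lay above the median of their neighbours. BABAM2, a scaffold of a BRCA1 complex, did not pass (log2 fold change -0.13) and was at 0.51 with neighbours subtracted (limma adjusted p = 0.000189). RRM2, the small subunit of ribonucleotide reductase, was at -0.35, and at 0.19 with neighbours subtracted (limma adjusted p = 0.0232).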
